A study of Danio rerio with 4 samples.

Results

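The collagen genes of the zebrafish embryo were compared between embryos raised in glucose and control embryos on an Affymetrix zebrafish array. Members were the probe sets whose only gene symbol in the platform annotation was a collagen chain (col, a type number, a and a chain number), and each gene was represented by its brightest probe set, the one with the highest mean log2 intensity over the 4 arrays. The rule found 25 probe sets for 21 genes, of 15617 probe sets and 8793 named genes in all. The glucose group was whole embryos kept in E3 embryo medium with 1% glucose between 12 and 36 hours post fertilisation (hpf). The control group was whole 36 hpf embryos labelled as control; the protocol text, shared by all samples, does not describe their medium separately. Each group had 2 biological replicates with 1 array each, all embryos were incubated at 28C, and the labels name neither a strain nor the number of embryos pooled per replicate. The series asks how glucose metabolism bears on the induction of blood stem cells, and the collagens are not part of that question.

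Collagens are the main structural proteins of the extracellular matrix, and their chains wind around each other into a triple helix. Fibrillar collagens such as types I and V form the banded fibrils of skin, fin and bone, whereas type IV and the multiplexins lie in or near basement membranes. The notochord sheath and early cartilage are built from type II collagen fibrils that carry types IX and XI, and in the young fish embryo the sheath gives the body axis its stiffness. Of 60 collagen symbols in the RefSeq gene table, 21 were measured here, and all 21 matched it by gene identifier. None of the 21 was a type IV chain, the main collagen of basement membranes, so the basement membrane class rests on other types.

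The median intensity was 172 and 176 on the glucose arrays and 172 and 174 on the control arrays. The actin signal at the 3' end over that at the 5' end, a measure of RNA integrity, was 2.49 and 2.14 in glucose against 2.36 and 2.24 in control, so the groups overlapped. Probe sets with no target in fish, the 17 tag controls, reached an intensity of 117.7, and a probe set below that value is called below the tag level. Of the 21 genes, 14 lay above the tag level on all 4 arrays and 3 (col10a1a, col10a1b and col17a1b) were below it on all 4. All 25 probe sets passed the filter on low values. As the arrays measured whole embryos, fewer cells of a type and less RNA per cell cannot be told apart. The number of arrays limits the precision.

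Of the 21 collagen genes, 1 passed the test: col1a2, a chain of type I collagen, which fell in glucose. The test was limma, its variance following intensity (the trend), and a call needed an adjusted p below 0.10 by Benjamini-Hochberg over the 13628 tested probe sets. That test called 2.00% of all tested probe sets (1.29% as higher and 0.712% as lower). Among the brightest probe sets of all named genes it called 2.18% (0.649% as lower). A count of 1 in 21 is therefore no result about the collagens as a group. Without the intensity trend 0 collagen genes and 0 of all probe sets passed (0%), with 8.45% of all probe sets at an unadjusted p under 0.05 and a smallest adjusted p of 0.301. In the fit with trend 5 of the 21 genes had an unadjusted p under 0.05, against 11.5% of all tested probe sets. These were col1a2 and col28a1a, which read lower, and col2a1a, col9a2 and col28a2a, which read higher. Over the 21 genes the log2 difference, glucose minus control, had a median of -0.0229, against 0.0015 for all tested probe sets. For 13 genes the 2 glucose values lay on one side of both control values, 8 higher and 5 lower in glucose. Such a separation was seen in 41.0% of all tested probe sets (20.7% higher and 20.3% lower), and in 42.4% of the brightest probe sets of named genes (21.8% higher and 20.6% lower).

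**Figure D1:**
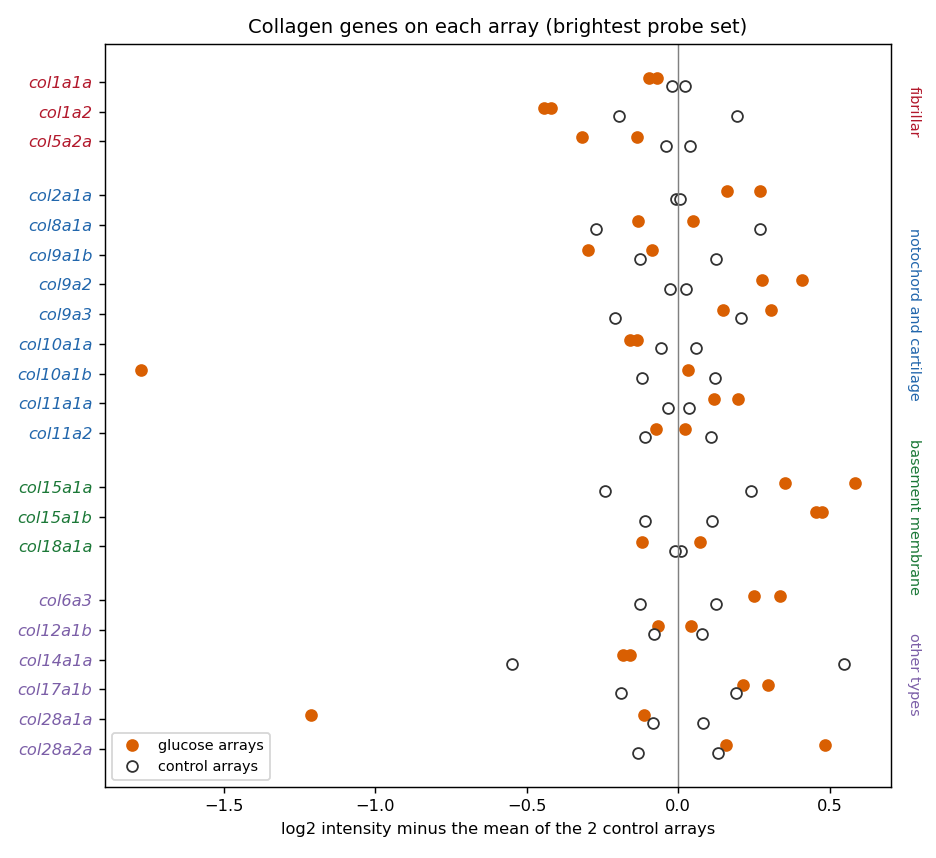
Brightest probe set of each of the 21 collagen genes, grouped by class. The x axis is the log2 intensity minus the mean of the 2 control arrays, with filled points for the 2 glucose arrays and open points for the 2 control arrays. In the fibrillar class the glucose points lie left of both control points for all 3 genes, and in the notochord and cartilage class col2a1a, col9a2 and col11a1a lie to the right.

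The fibrillar class held col1a1a and col1a2, chains of type I collagen, and col5a2a, a chain of the type V collagen that is built into type I fibrils. The type I gene col1a1b was not among the members. All 3 genes read lower in glucose with the groups apart, and their median log2 difference was -0.23. Of the brightest probe sets of named genes, 20.6% lay lower with the groups apart. The classes were chosen with the calls of the trend fit known, so the count of 3 is not a test. Types II and XI also form fibrils but were placed in the notochord and cartilage class. There col2a1a (0.22) and col11a1a (0.16) read higher with the groups apart, and col11a2 (-0.0262) overlapped. The direction of this class therefore does not hold for all fibril-forming chains. The brightest col1a2 probe set had intensities of 8337 and 8194 in glucose, against 12764 and 9734 in control. The glucose arrays were close to each other and the control arrays were not, with control replicate 1 well above control replicate 2. The means were 8265 ± 101 in glucose and 11249 ± 2142 in control (SD, n = 2 each). The log2 difference was -0.43, with a standard error of 0.116 in limma with trend and a larger one, 0.192, without it. Its adjusted p was 0.0881 in limma with trend and 0.635 without it. The call was lost without glucose replicate 1 (log2 difference -0.44, adjusted p = 0.17), without glucose replicate 2 (-0.42, 0.275) and without control replicate 1 (-0.24, 0.215), and was also lost with no filter on low values (adjusted p = 0.22). Without control replicate 2 the difference was -0.63. That fit takes its spread from the 2 glucose arrays alone, so its p-value is not given for col1a2. With 1 array of a group left out, the lone array is assumed to vary like the pair of the other group, here and below.

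A second probe set of col1a2 read 4409 and 4883 in glucose, against 5940.4 and 5488 in control. It did not overlap between the groups either, with a log2 difference of -0.30, a standard error of 0.107 and an adjusted p of 0.259 by limma. When both probe sets of the gene were averaged, the col1a2 difference was -0.37 with an adjusted p of 0.132.

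The type I chain col1a1a read 11237 and 11029 in glucose, against 11968 and 11620.5 in control, on its brightest probe set. The groups were apart by a small margin, and the log2 difference was -0.0831 with a 95% interval from -0.28 to 0.11. Its second probe set read 6308 and 6844 in glucose, against 7751 and 9404 in control. That difference was -0.38 with an interval from -0.61 to -0.15, and it did not pass (limma with trend, adjusted p = 0.131). The brightest probe set of col1a1a thus gave a smaller difference than the other, and a difference as large as that of the second lies outside its interval. Both carry the suffix that Affymetrix gives to probes shared by several transcripts. The second, DrAffx.2.1.S1_s_at, shares the stem of its name with DrAffx.2.1.S1_at, which the platform annotation gives to runx2a, so its assignment to col1a1a is less certain.

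For col5a2a the brightest probe set read 1591 and 1405 in glucose, against 1703 and 1799 in control, a log2 difference of -0.23 (standard error 0.126, limma with trend, adjusted p = 0.526). The other probe set lay close to the tag level, at 103 and 124 in glucose, against 133 and 147 in control. Its difference was -0.31 with an interval from -0.84 to 0.22. All 6 fibrillar probe sets therefore read lower in glucose with the groups apart, where 20.3% of all tested probe sets did so. Of the 6, 1 passed the test, which called 0.712% of all tested probe sets as lower. The second col1a1a probe set, of less certain assignment, is counted among the 6. The 6 probe sets stand for 3 genes and are not independent of each other. All 6 also stayed below 0 with quantile normalization, which moved the median difference of all tested probe sets by only -0.0055. Median centring moved every difference by the same -0.0091, so no difference below 0 could turn, and it is no check of direction. With the groups apart, leaving out 1 array or adding an offset of 32 cannot turn the sign, so those settings are no check of direction.

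**Figure D2:**
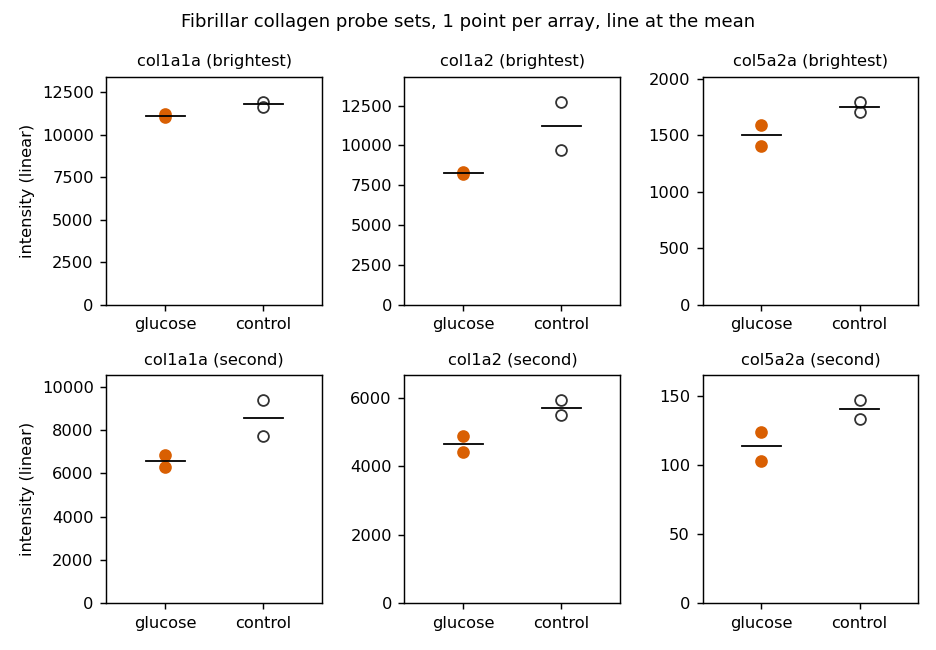
Intensity on a linear scale for both probe sets of col1a1a, col1a2 and col5a2a, with 1 point per array and a line at the mean of each group, glucose on the left and control on the right. In each of the 6 panels both glucose points lie below both control points, and the control points of the brightest col1a2 probe set, at 12764 and 9734, are the farthest apart in intensity.

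The notochord and cartilage class held 9 genes, and 0 passed the test (0 without the trend as well), with 2 at an unadjusted p under 0.05, both higher. Its median log2 difference was -0.0262, with 4 genes higher and 5 lower. The fibril-forming chains and their surface partners did not all differ the same way. The type II chain col2a1a, the main collagen of cartilage and of the notochord sheath, read 10688 and 9902 in glucose, against 8820.1 and 8896 in control. The 2 control values were close together and both glucose values were above them, a log2 difference of 0.22 with an interval from 0.01 to 0.42 (limma with trend, adjusted p = 0.399). The type XI chain col11a1a, which helps to start type II fibrils, read 5163 and 4888 in glucose, against 4399 and 4618 in control. It was also apart, with a log2 difference of 0.16 (adjusted p = 0.622). The other type XI chain, col11a2, read 164 and 153 in glucose, against 149.9 and 174 in control, and overlapped.

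Type IX collagen coats type II fibrils and is a trimer of different chains, of which the array measured col9a1b, col9a2 and col9a3. The chain col9a2 read 3339 and 3663 in glucose, against 2708 and 2811 in control. The groups were apart, with a log2 difference of 0.34 and a standard error of 0.113. The gene did not pass, at an adjusted p of 0.203 by limma with trend and 0.624 without it. For col9a3 the values were 2758 and 3077 in glucose, against 2156 and 2875 in control. These overlapped, since control replicate 2 lay between the glucose values, and the difference was 0.23. The chain col9a1b read 4213 and 4883 in glucose, against 4749 and 5651 in control, a difference of -0.19 with the groups overlapping. The direction of col9a1b was thus opposite to that of col9a2 and col9a3, and no test of that contrast was made. Single arrays moved these values. Without control replicate 2, which leaves the spread to the glucose pair and calls 6.85% of all probe sets, col9a2 (0.37) and col9a3 (0.43) had adjusted p of 0.0443 and 0.0171. The col9a2 difference without another array lay between 0.28 and 0.41 and did not pass. The col9a3 difference was 0.15 without glucose replicate 2 and 0.0192 without control replicate 1. The col9a1b difference was -0.32 without control replicate 1 (adjusted p = 0.0905, in a fit that calls 1.77% of all probe sets as lower), but -0.0662 without control replicate 2 (adjusted p = 0.837) and -0.0853 without glucose replicate 1 (adjusted p = 0.967).

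The remaining 3 genes of the class were col8a1a, a network-forming collagen of the notochord, and col10a1a and col10a1b, chains of the collagen of maturing cartilage and bone. The values of col8a1a were 224 and 254 in glucose, against 296 and 203 in control. The control arrays enclosed the glucose arrays, and the sign of the difference turned when 1 array was left out, between -0.31 without control replicate 2 and 0.23 without control replicate 1. Both type X genes were below the tag level on all 4 arrays, at 67.1 and 66.0 in glucose against 70.9 and 76.8 in control for col10a1a, and at 13.6 and 47.4 in glucose against 42.7 and 50.4 in control for col10a1b. No difference in type X collagen was detectable at that signal.

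**Figure D3:**
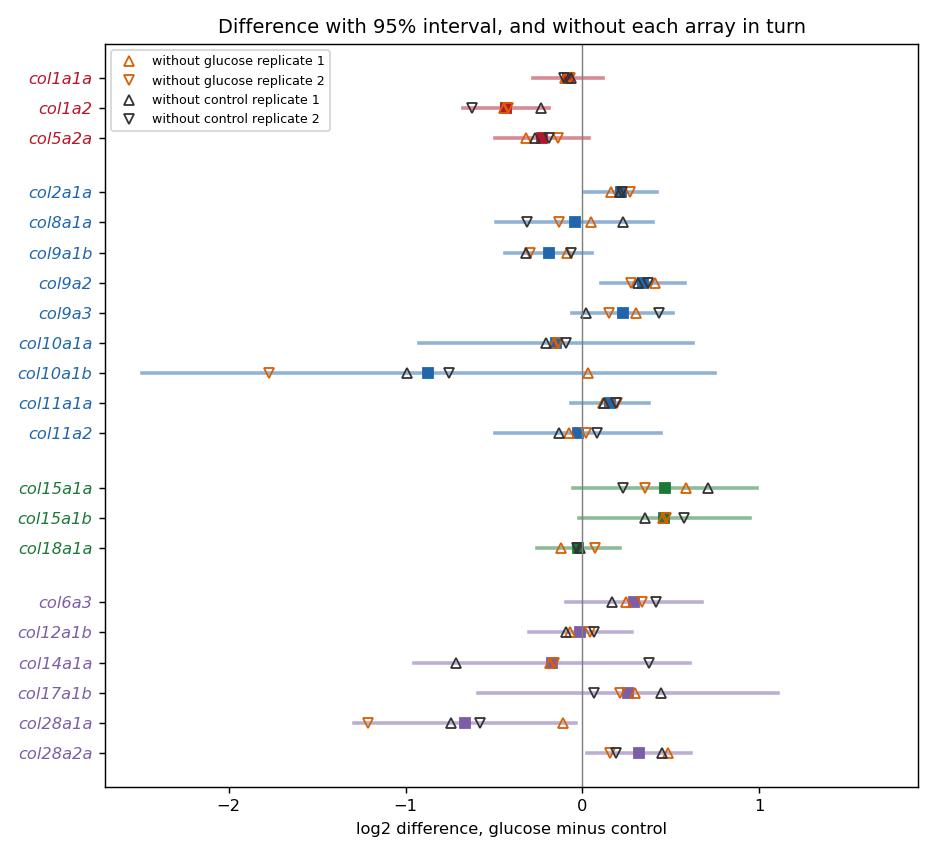
Log2 difference, glucose minus control, for the 21 collagen genes (squares) with the 95% interval of the fit on all 4 arrays (bars) and the difference when 1 array is left out (triangles). Triangles lie on both sides of 0 for col8a1a, col11a2, col12a1b, col14a1a, col18a1a and col10a1b, and on one side for all the other genes. For a gene whose groups are apart, leaving out 1 array cannot turn the sign.

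The basement membrane class held col15a1a, col15a1b and col18a1a, the multiplexins, whose interrupted triple helices carry sugar chains and end in endostatin-like domains. None of the 3 passed. The gene col15a1a read 157 and 185 in glucose, against 146 and 104 in control, and col15a1b read 176 and 173 in glucose, against 117 and 137 in control. Both were higher in glucose with the groups apart, by 0.47 (interval -0.05 to 0.99) and 0.46 (interval -0.02 to 0.95) on the log2 scale, with adjusted p of 0.502 and 0.466 (limma with trend). For each, 1 control array lay below the tag level. Of the brightest probe sets of named genes, 21.8% lay higher in glucose with the groups apart. Without control replicate 2 the col15a1a difference was 0.23, and without control replicate 1 it was 0.71. The values of col18a1a were 4165 and 3645 in glucose, against 3984 and 3933 in control. The glucose arrays enclosed the control arrays, and the difference of -0.0229 had an interval from -0.26 to 0.21.

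The other 6 genes were of the beaded, fibril-associated and transmembrane types, and none passed. Groups were apart for 4 of them, 3 higher and 1 lower in glucose, where 42.4% of the brightest probe sets of named genes were apart. One of the 3 higher, col17a1b, was below the tag level on all arrays. The type XXVIII gene col28a2a read 1656 and 2078 in glucose, against 1627 and 1356 in control, a log2 difference of 0.32 (limma with trend, adjusted p = 0.384). Glucose replicate 1 was only just above control replicate 1, and the difference depended on single arrays. It was 0.45 without control replicate 1 (adjusted p = 0.0399, with 2.43% of all probe sets called higher), but 0.19 without control replicate 2 (adjusted p = 0.536) and 0.16 without glucose replicate 2 (adjusted p = 0.939). The related col28a1a read 77.5 and 166 in glucose, against 170 and 190.2 in control. Its difference of -0.66 (adjusted p = 0.401) rested on glucose replicate 1, which was below the tag level: it was -0.11 without that array and -1.21 without glucose replicate 2 (adjusted p = 0.028, with 1.08% of all probe sets called).

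The type VI chain col6a3, part of beaded microfibrils around muscle and other cells, read 332 and 313 in glucose, against 241 and 287 in control, a log2 difference of 0.29 (limma with trend, adjusted p = 0.585). The fibril-associated col12a1b read 978 and 906 in glucose, against 899 and 1003 in control, so the controls enclosed the glucose arrays; the interval of the difference ran from -0.31 to 0.28. The fibril-associated col14a1a read 79.5 and 78.2 in glucose, against 60.7 and 129.6 in control. Only its control replicate 2 lay above the tag level. For col17a1b, the transmembrane collagen of hemidesmosomes that anchor the epidermis, both probe sets were below the tag level on all arrays and differed in opposite directions, by 0.26 and -0.41, each with the groups apart. Values at that level carry no direction.

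**Figure D4:**
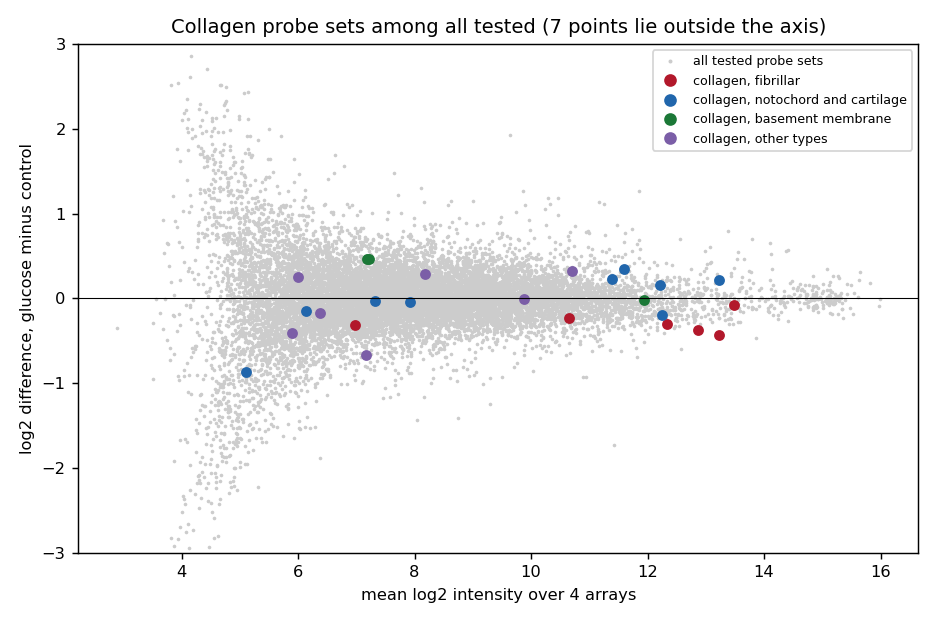
Log2 difference, glucose minus control, against mean log2 intensity for all 13628 tested probe sets (grey, 7 lie outside the axis) and for the 25 collagen probe sets, coloured by class. The spread of the grey points narrows with intensity, and the collagen probe sets lie within it, with the second and brightest type I probe sets below 0 and col2a1a and col9a2 above 0 at the bright end.

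The enzymes and carriers that make collagen were read from lists of related genes in the same fit. Of 12 measured genes for collagen modification and folding, 0 passed, 4 read higher and 8 lower, and the median log2 difference was -0.14. The prolyl 3-hydroxylation partners crtap and ppib read lower with the groups apart, with log2 differences of -0.24 and -0.18, and p4ha1b, a catalytic subunit of prolyl 4-hydroxylase, read higher by 0.37 (limma with trend, adjusted p = 0.451, 0.524 and 0.431). Of 15 genes of collagen secretion, 0 passed, with 8 higher and 7 lower. The one with the smallest p, the retrieval receptor kdelr2a, read 2131 and 1829 in glucose, against 3135 and 2404 in control (log2 difference -0.48, adjusted p = 0.121), and the COPII coat genes sec24a and sec23b differed by 0.33 and 0.24 (adjusted p = 0.513 and 0.561).

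Of 9 genes of collagen processing and cross-linking, 0 passed and 8 read lower, 5 of them with the groups apart. Of all tested probe sets, 50.2% read higher and 20.3% lay lower with the groups apart. The median log2 difference of the 9 genes was -0.21. The 3 with the smallest p were bgnb, the only gene that read higher, and tll1 and pcolce2b, which read lower. Their adjusted p were 0.451, 0.488 and 0.506 (limma with trend). Of the 9 genes, 3 were below the tag level on all 4 arrays, bgnb and tll1 among them. The bgnb values were 47.2 and 63.0 in glucose, against 10.9 and 1.64 in control. It passed the filter on low values through the glucose arrays alone, so its direction was partly set by the filter. The collagen-binding proteoglycan dcn read 2057 and 2144 in glucose, against 2490 and 2356 in control, apart but not past the test (adjusted p = 0.537). Of 11 genes of collagen breakdown and its inhibitors, 1 passed, where 2.00% of all tested probe sets were called (1.29% as higher). A count of 1 in 11 is no result about the list. The gene, ctsla, a cathepsin L gene, rose to 20387 and 22122 in glucose, against 13774 and 15849 in control (log2 difference 0.52, limma with trend, adjusted p = 0.00969). Its adjusted p without the trend was 0.559, and the call was lost without glucose replicate 2 (adjusted p = 0.118). The matrix metalloproteinases mmp17b and mmp9 differed by -0.80 and -0.41 (adjusted p = 0.456 and 0.559), and mmp17b was below the tag level on all 4 arrays. None of the 15 listed collagen receptor symbols was matched to a named probe set.

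Among 11 tested basement membrane partners, 7 read higher and 4 lower, with a median log2 difference of 0.05. The laminin chain genes lamc1 and lamb1a read higher with the groups apart, by 0.67 and 0.33, and did not pass (limma with trend, adjusted p = 0.202 and 0.311). The matrix glycoprotein gene fbln1 fell by 0.85 on the log2 scale, to 221 and 137 in glucose, against 285 and 344 in control (adjusted p = 0.0877). This call was lost without glucose replicate 2, when the difference was -0.50.

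Markers of the tissues that hold these collagens were read beside them. Of 13 measured fin fold and dermal mesenchyme markers, 10 read lower, 6 of them with the groups apart, and 4 fell: the actinodin genes and1, and2 and and3, which encode fibres of the fin fold, by 0.51, 0.42 and 0.58 log2 units (adjusted p by limma 0.075, 0.0994 and 0.0661), and fbln1, which is on both lists. Of all tested probe sets, 0.712% were called lower and 20.3% lay lower with the groups apart. The marker lists were chosen with the calls of the trend fit known, so counts of calls within them are not a test. The summed intensity of the 13 markers was 11761 and 10811 in glucose, against 14154 and 14888 in control, and the 4 genes that fell made up 73.7% of it. The other 9 markers summed to 3295 and 3473 in glucose, against 3509 and 3302 in control, which overlap. Of the 13, 2 (tbx5a and fgf24) were below the tag level on all 4 arrays. Adjusted p without the trend lay between 0.572 and 0.624 for the 4 genes, and all 4 calls were lost without glucose replicate 2. The and1 call was also lost without control replicate 2, when the difference was -0.29, and the and2 call was also lost without glucose replicate 1 and without control replicate 1. With no filter on low values none of the 4 passed (adjusted p from 0.106 to 0.228). Quantile normalization ended the calls of and1, and2 and fbln1 (adjusted p = 0.144, 0.112 and 0.12) and median centring that of and2 (0.101). Of 14 epidermal markers, 12 read lower and 1 fell, agr2, by 0.62 (adjusted p = 0.0132; 0.108 without glucose replicate 2), where 0.712% of all tested probe sets were called lower and 50.2% read higher. Their summed intensity was 108566 and 107393 in glucose, against 119285 and 112092 in control, with 0 below the tag level on all arrays. The actinodins, fbln1 and the epidermal sum were lower in glucose as col1a2 was, and their part in the col1a2 difference was not tested.

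Of 8 notochord markers, 0 passed, with 6 higher and 2 lower and a median log2 difference of 0.07. Their summed intensity was 6427 and 6620 in glucose, against 5838 and 6730 in control, and the groups overlapped. The notochord transcription factor tbxta read 206 and 172 in glucose, against 150.5 and 183 in control, and noto was below the tag level on all 4 arrays. The smallest p among them were those of shha, ccn2a and tbxta, with differences of -0.27, 0.23 and 0.18 (limma with trend, adjusted p = 0.528, 0.537 and 0.82). Of 8 tested cartilage markers, 0 passed, with 4 higher and 4 lower. The link protein gene hapln1a (-0.64, adjusted p = 0.162) and runx2a (-0.54, adjusted p = 0.285) read lower, whereas matn4 differed by 0.18 with the groups overlapping. The runx2a probe set, DrAffx.2.1.S1_at, shares the stem of its name with the second col1a1a probe set, so its assignment is also less certain. The hapln1a values were 1375 and 779 in glucose, against 1432 and 1813 in control. Glucose replicate 1 was thus close to control replicate 1. The summed intensity of the 11 cartilage markers was 5883 and 5595 in glucose, against 5761 and 6352 in control, and 5 of them, sox9a and acanb included, were below the tag level on all 4 arrays. Vascular endothelial markers (7 tested) had 0 calls, with 4 higher and 3 lower and a median difference of 0.0453. Skeletal muscle markers (12 tested) also had 0 calls, with 1 higher and 11 lower and a median difference of -0.0543. The groups were apart for 4 of the lower muscle markers and for the 1 higher. Of all tested probe sets, 20.3% lay lower with the groups apart, 20.7% lay higher, and 50.2% read higher with or without overlap. Neither the notochord and cartilage markers nor col2a1a and col9a2, which read higher, passed the test. Whether these collagens and markers differ together was not tested.

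**Figure D5:**
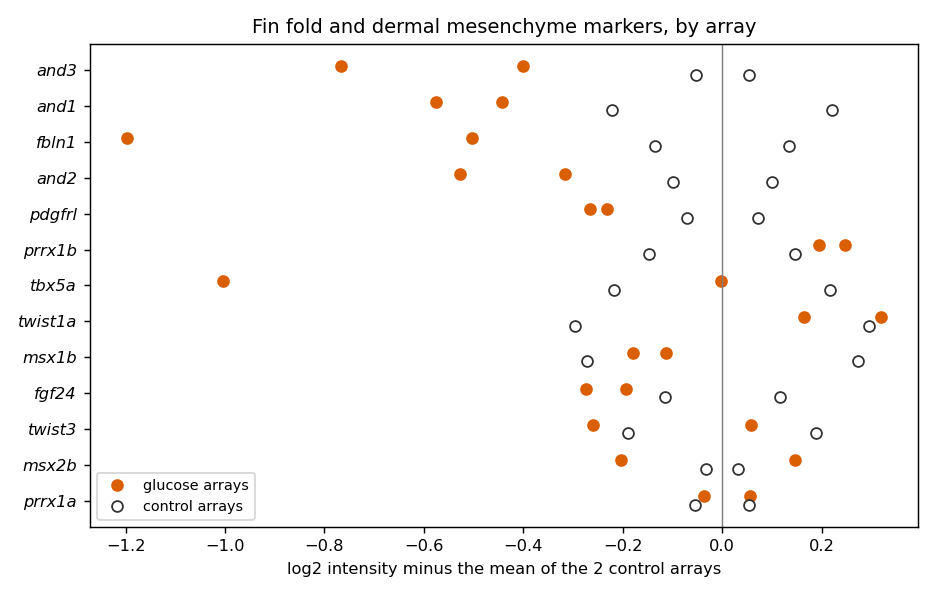
The 13 fin fold and dermal mesenchyme markers on each array, as log2 intensity minus the mean of the 2 control arrays, with filled points for glucose and open points for control, ordered by p. The glucose points of and3, and1, fbln1 and and2 lie left of both control points, and 3 markers have a glucose mean above that of the controls.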

How the data were processed

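The deposited values are linear intensity readings, 1 for every probe set on an array, from biotin-labelled total RNA extracted with Trizol, per the labels' protocols. GCRMA is named, without a version, in the submitters' processing notes, but the deposited arrays all have a 2% trimmed mean of 500.2, so the method and any background subtraction are unknown. The log2 of each intensity was taken with no further scaling. Of 15502 probe sets other than the 115 controls, those with a log2 of at least 5 on at least 2 arrays (13628) were tested, with all 4 arrays, by limma 3.58.1 (lmFit, eBayes with an intensity trend) in R 4.3.3 and Benjamini-Hochberg adjustment at 0.10. The trend was used because the within-group SD was 0.836 log2 units below a mean log2 of 6 and 0.103 at 12 and above. The code was tested on simulated data.

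Members, classes, gene lists and tests were chosen with earlier results of these data known, the calls of the trend fit among them. Classes followed type number: I, III, V and XXIV fibrillar; IV, VII, XV and XVIII basement membrane; II, VIII, IX, X, XI and XXVII notochord and cartilage; the rest other. All 21 genes are named; from each related list, genes that passed and up to 3 of smallest p were named by rule, and dcn, noto, tbx5a, fgf24, sox9a and acanb after their values were seen. Symbols come from the platform annotation, updated by gene identifier through the RefSeq table of assembly GRCz12tu, and list symbols were also matched through its synonyms. Another probe set, annotated to both dcxr and col1a1b, was left out. The labels do not say whether replicates came from separate clutches, so p-values measure the spread between these samples only.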

Additional observations from a re-analysis of the deposited data

How the results depend on the processing

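Of 288 comparisons of a single collagen gene under another setting, 266 kept direction and side of the threshold, 11 changed direction, 5 gained a call and 6 lost one (all 6 for col1a2). The cause of these changes was not tested. Much of the agreement was fixed in advance. Settings that change only the trend, moderation, block or filter leave the log2 difference as it was. For a gene with the groups apart, leaving out 1 array cannot turn the sign. The count of 266 is therefore no measure of robustness. Leaving out 1 array gave 0 to 3 collagen calls, 1 to 17 calls in the related lists and 147 to 934 over all probe sets, against 1, 6 and 273 with all 4 arrays. No trend gave 0 calls in each; an adjusted p under 0.05 gave 0, 2 and 161; no filter gave 0, 2 and 174. Averaging probe sets gave 0 collagen calls, and quantile normalization 3 list calls. With all 4 arrays the col1a2 adjusted p by limma ranged from 0.0326 with the replicate block to 0.635 without trend.

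Class medians without 1 array ran from -0.32 to -0.14 (fibrillar), 0.0192 to 0.082 (notochord and cartilage, -0.0262 with all arrays), 0.228 to 0.454 (basement membrane) and 0.0372 to 0.128 (other). With log2(value + 32) the basement membrane median was 0.381; above the brightest tag the notochord and cartilage median was 0.157; the median of the other types was -0.0128 at a mean log2 of at least 6 and -0.0439 with probe sets averaged. Signs turned for col17a1b with probe sets averaged (-0.0751), col18a1a with quantile normalization (0.0165) and, without 1 array, for col10a1b (-1.77 to 0.0312), col11a2 (-0.13 to 0.082), col12a1b (-0.0919 to 0.0664), col14a1a (-0.72 to 0.378), col18a1a (-0.12 to 0.0734) and col8a1a (-0.31 to 0.228). Same-numbered arrays did not deviate together (r = -0.0228 across probe sets), and the replicate number as a block gave 1 collagen call, 8 list calls and 301 over all probe sets.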
